A study of Mus musculus with 2 samples.

Results

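The microRNA genes Mir31, Mir489 and Mir708 were followed in skeletal muscle of newborn mice, as 3 of the 1973 microRNA genes counted there. They were chosen by gene symbol because their microRNAs are known from quiescent muscle stem cells, a rule that uses no measured value, although earlier results of these data were known when it was set. RNA shorter than 30 bases had been sequenced from muscle of strain B6NCrl at postnatal day 0, in 2 libraries that the labels number as biological replicates 1 and 2. Each library came from a piece of muscle of 1 pup, sex was not recorded, and both carry the same donor record, so that they stem from separate pups is an assumption. There is 1 group and no treatment or other age, so no condition was compared with another.

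Satellite cells, the stem cells of skeletal muscle, lie between the fibre and its basal lamina, and in adult muscle most of them are quiescent. After injury they are activated, divide as myoblasts and fuse into fibres. A microRNA is cut from a hairpin precursor and guides the silencing of messenger RNAs that pair with its seed, bases 2 to 8. In satellite cells miR-31 is known to hold back translation of Myf5, the factor that commits cells to the muscle fate. The known target of miR-489 is Dek, which drives the proliferation of activated cells, and that of miR-708 is Tns3 (tensin 3), an adhesion protein linked to cell migration. In newborn muscle many satellite cells still divide and add nuclei to growing fibres.

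The mature sequences are shown because their seeds decide which genes the 3 microRNAs can be grouped with. Both arms of each hairpin are given 5′ to 3′ from RefSeq (GRCm38.p6), with the seed in capitals.
mmu-miR-31-5p: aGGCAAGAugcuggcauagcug
mmu-miR-31-3p: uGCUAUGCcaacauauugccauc
mmu-miR-489-5p: uGUCAUAUgugugaugacacuuucu
mmu-miR-489-3p: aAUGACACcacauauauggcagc
mmu-miR-708-5p: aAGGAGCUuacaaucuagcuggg
mmu-miR-708-3p: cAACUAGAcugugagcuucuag
The 6 arms are 22 to 25 bases long and carry 6 different seeds. Among the 1738 mature microRNAs in the RefSeq table, 2 others have the same seed as an arm of these genes, and they are shown for comparison.
mmu-miR-28a-5p: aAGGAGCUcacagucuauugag
mmu-miR-425-5p: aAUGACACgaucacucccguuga
The first has the seed of miR-708-5p and equals it at 16 of 22 bases from the 5′ end. The second has the seed of miR-489-3p and equals it at 12 of 23 bases. Arms of Mir31 share their seed with no other entry of the table. The counts are per gene and do not tell the arms of a hairpin apart.

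Mir31 (ENSMUSG00000065408) lies on the minus strand of chromosome 4 at 88910557 to 88910662 (GRCm38, the assembly also called mm10), in an exon of the long noncoding RNA gene AL805899.1. Mir489 (ENSMUSG00000070107) lies on the minus strand of chromosome 6 at 3721897 to 3722003. It is in an intron of Calcr, the gene of the calcitonin receptor, which marks quiescent satellite cells. Mir708 (ENSMUSG00000076143) lies on the plus strand of chromosome 7 at 96249424 to 96249532, in an intron of Tenm4, a transmembrane teneurin gene. Each has the strand of its host gene, and no other microRNA gene is annotated across from any of them.

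The libraries held 16398945 and 21037937 reads, and 7955914 and 10816295 of them fell on the annotated strand of a microRNA gene. Levels are given in CPM, a gene's count scaled to the same sum of such counts in each library. A CPM of 0.377 in replicate 1 and 0.277 in replicate 2 equals 3 counts, the limit that a count of 0 allows, and intervals and limits cover counting error only. The muscle identity of the tissue was visible in Mir206, the most abundant gene, and the skeletal muscle marker genes summed to 109278 and 122731 CPM. Of these markers Mir1a-2 was not found, and Mir1a-1, Mir133a-1, Mir133a-2 and Mir133b share a run of bases with another microRNA gene. Their counts are lower limits, so Mir206 ranks first only as counted. Heart-specific Mir208a had at most 15.5 CPM. Neuronal markers summed to 1.13 and 0.925 CPM, with the 3 Mir124a genes at 0 in both libraries. All 6 neuronal genes found share a run of bases with another microRNA gene. Reads that fit more than 1 place are left out of the counts, so these low values do not show that neuronal RNA was absent.

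Mir708 was the most abundant of the 3 genes. It had 4792 counts in replicate 1 and 2842 in replicate 2, or 602 CPM (95% exact Poisson interval 585 to 620) and 263 CPM (253 to 273). The interval of replicate 1 lay wholly above that of replicate 2. The mean was 433 CPM ± 240 (SD, n = 2), which is 0.0433% of the microRNA counts, and it placed Mir708 at rank 123 of the 365 genes detected with at least 10 counts in both libraries. Without replicate 1 the level would be 263 CPM, so the mean rests strongly on that library.

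Mir31 had 417 and 476 counts in replicates 1 and 2, or 52.4 CPM (interval 47.5 to 57.7) and 44.0 CPM (40.1 to 48.1). These intervals overlap. The mean was 48.2 CPM ± 5.94 (SD, n = 2), at rank 203 of 365 and 0.00482% of the counts. The median of all detected genes was 87.0 CPM, below Mir708 and above Mir31 in both libraries.

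Mir489 had 18 counts in replicate 1 and 9 in replicate 2, or 2.26 CPM (interval 1.34 to 3.58) and 0.832 CPM (0.380 to 1.58). Both counts were above the limit that a count of 0 allows, but replicate 2 fell short of the 10 counts set for detection, so Mir489 is not among the 365 genes. The mean was 1.55 CPM ± 1.01 (SD, n = 2), about 1 in 441995 counts of replicate 1 and 1 in 1201811 of replicate 2. Among the 591 genes with at least 1 count in both libraries it held rank 353. In bulk tissue, few cells that express a gene and little RNA per cell cannot be told apart.

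**Figure D1:**
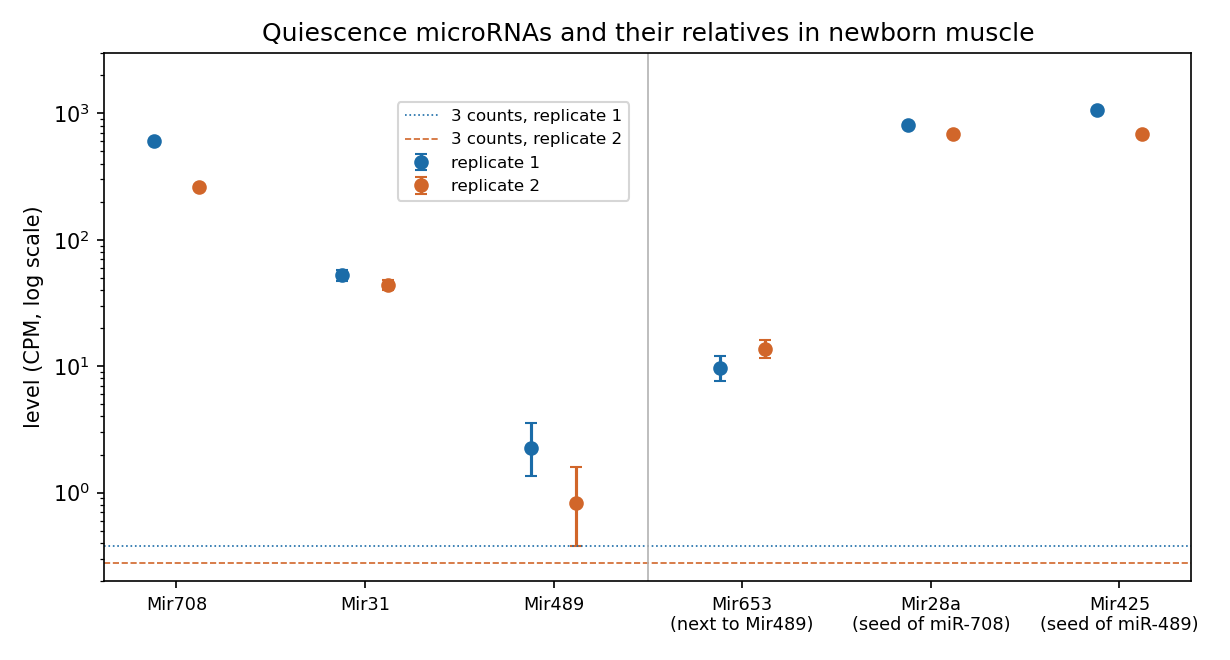
Level of Mir708, Mir31 and Mir489, and of 3 related genes, in replicates 1 and 2 (CPM, log scale), with points for the libraries, bars for 95% exact Poisson intervals and lines at the level of 3 counts. Mir708 lies between 263 and 602 CPM, Mir31 between 44.0 and 52.4 and Mir489 between 0.832 and 2.26, so the 3 genes do not overlap.

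The order Mir708, Mir31, Mir489 was the same in both libraries, and no neighbours in it overlapped. The mature microRNAs are of similar length, so these CPM were set side by side without division by length. How many reads each microRNA yields per molecule was not measured, so the ratios between genes are of counts and not of molecules. Mir708 exceeded Mir31 11.5-fold in replicate 1 (95% exact counting interval 10.4 to 12.7) and 5.97-fold in replicate 2 (5.42 to 6.59). The size of this gap therefore differed between the libraries beyond counting error, while its direction did not. Mir31 exceeded Mir489 23.2-fold (14.5 to 39.5) and 52.9-fold (27.6 to 116), with intervals that overlap. Mir708 exceeded Mir489 266-fold (168 to 450) and 316-fold (166 to 691). For scale, Mir206, whose microRNA is made in muscle cells and is known to lower Pax7, exceeded Mir708 178-fold in replicate 1 and 459-fold in replicate 2. It exceeded Mir31 2044-fold and 2742-fold.

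**Figure D2:**
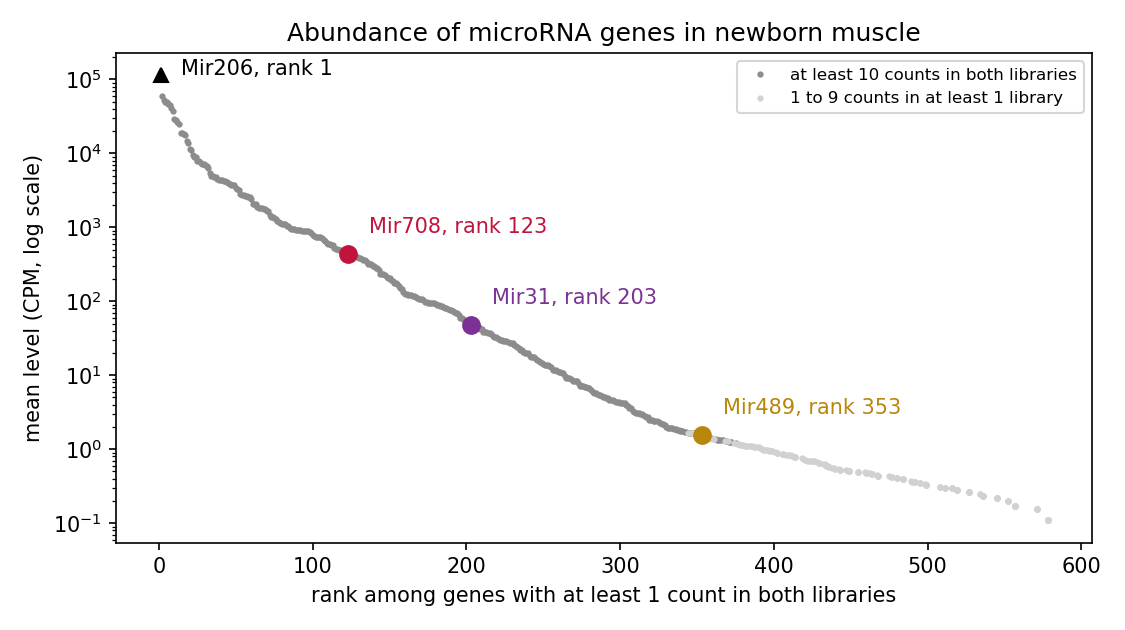
Mean level (CPM, log scale) of each microRNA gene with at least 1 count in both libraries against its rank. Mir708 stands at rank 123, Mir31 at 203 and Mir489 at 353, where detected and undetected genes meet.

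Within Calcr lies another microRNA gene, Mir653, the only one annotated within 10 kb of the 3 genes. It is 512 bases from Mir489 on the same strand, at 3721301 to 3721385 of chromosome 6. Mir653 had 77 and 149 counts in replicates 1 and 2, or 9.68 and 13.8 CPM, with a mean of 11.7 CPM ± 2.90 (SD, n = 2) and rank 257 of 365. It was thus higher than Mir489 in both libraries, 4.28-fold in replicate 1 (counting interval 2.54 to 7.60) and 16.6-fold in replicate 2 (8.49 to 36.9). These intervals do not overlap. Mir489 held 18.9% of the pair's counts in replicate 1 (95% exact Clopper-Pearson interval 11.6 to 28.3) and 5.70% in replicate 2 (2.64 to 10.5). Together the pair had 11.9 and 14.6 CPM, which is closer between the libraries than either gene alone.

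Genes that share a seed with these microRNAs stood above them. Mir28a, on chromosome 16 and with the miR-708-5p seed, had 6479 and 7386 counts in replicates 1 and 2, or 814 and 683 CPM, with a mean of 749 ± 93.0 (SD, n = 2) and rank 102. It exceeded Mir708 1.35-fold in replicate 1 and 2.60-fold in replicate 2, and Mir708 made up 42.5% and 27.8% of their summed CPM. Mir28a shares 20 bases of its hairpin with Mir28c, so its level is a lower limit. Mir425, on chromosome 9 and with the miR-489-3p seed, had 8477 and 7455 counts, or 1065 and 689 CPM, with a mean of 877 ± 266 and rank 98. Mir489 made up 0.212% and 0.121% of the summed CPM of that pair. Arms are pooled in these counts, so the shares are of gene counts and not of molecules with the seed.

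The level of Mir708 is a lower limit as well, because the authors' counts leave out reads with more than 1 possible place. A run of 23 bases of its hairpin recurs in Gm23134 (ENSMUSG00000077990), a microRNA gene on the minus strand of chromosome 2 at 157562361 to 157562447. That gene lies in an intron of Blcap and opposite an exon of the imprinted gene Nnat. The windows of 31 bases around the run are shown as DNA, with the shared bases in capitals.
Mir708 hairpin: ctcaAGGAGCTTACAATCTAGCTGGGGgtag
Gm23134 hairpin: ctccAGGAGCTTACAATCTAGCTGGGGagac
The run starts at base 2 of miR-708-5p and covers 22 of its 23 bases, the seed included, and none of miR-708-3p. A read of miR-708-5p that lacks its first base therefore fits both genes. Gm23134 had 12 and 8 counts of its own in replicates 1 and 2, and Mir708 exceeded it 399-fold and 355-fold. How many reads of miR-708-5p were set apart cannot be read from gene counts. Mir31, Mir489 and Mir653 share no run of 20 bases with another microRNA gene.

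On the strand opposite Mir708, 4 counts fell in replicate 1 and 5 in replicate 2. They made up 0.0834% of the counts of both strands in replicate 1 (95% exact Clopper-Pearson interval 0.0227 to 0.213) and 0.176% in replicate 2 (0.0570 to 0.409), with overlapping intervals. At Mir31 and Mir489 the opposite strand had 0 counts in both libraries. By the limit of 3 counts, this allows a share of up to 0.719% and 0.630% at Mir31 in replicates 1 and 2. At Mir489 it only limits the share to 16.7% and 33.3%. The Clopper-Pearson intervals reach somewhat higher, to 0.881% and 0.772% at Mir31 and 18.5% and 33.6% at Mir489. Of the 365 detected genes, 324 (88.8%) had 0 opposite-strand counts in both libraries, and 21 had a larger share of them than Mir708. Summed over all genes, though, 10.7% of the counts of both strands in replicate 1 and 11.9% in replicate 2 fell on the opposite strand. The raw counts of the 3 genes thus hardly depend on which strands are counted. Their CPM do, because the sum of counts grows. With both strands counted the means were 42.8 CPM for Mir31, 1.38 for Mir489 and 385 for Mir708.

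Between the libraries, Mir708 was higher in replicate 1. After scaling of library sizes by trimmed means (TMM), its log2 ratio of replicate 1 over replicate 2 was 0.95 (95% counting interval 0.88 to 1.02), a 1.93-fold difference with an adjusted p of 1.98e-176 (exact binomial test, two-sided, adjusted after Benjamini and Hochberg over all 365 detected genes). This passed the adjusted p, as 61.1% of detected genes did, but not the 2-fold minimum. Together with the adjusted p, 7.4% of genes passed that minimum, 6.3% towards replicate 1. The test compares 2 libraries and knows no error other than that of counting. Over all detected genes the median absolute log2 ratio was 0.31, and 31 genes (8.49%) lay farther from 0 than Mir708. With library totals in place of TMM, the ratio of Mir708 was 1.20, which passed both criteria, as 11.2% of genes did towards replicate 1.

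Mir31 did not differ detectably between the libraries after TMM scaling, with a log2 ratio of 0.0068 (interval -0.19 to 0.20) and an adjusted p of 0.990 in the same exact binomial test. Of the detected genes, 98.4% lay farther from 0. With library totals the ratio was 0.25, with an adjusted p of 0.0165, which passed as 64.4% of genes did, and under 2-fold. Mir489 was not tested among the 365 genes. With a count minimum of 1, which admits 591 genes, its log2 ratio was 1.28 (interval 0.05 to 2.62) with an adjusted p of 0.0798, so its 18 and 9 counts did not pass. Mir653 leaned the other way, with a ratio of -0.75 (interval -1.17 to -0.35) and an adjusted p of 3.50e-04 in the exact binomial test over 365 genes, under 2-fold. Mir28a, which shares the seed of miR-708-5p, had a ratio of 0.0087 (interval -0.04 to 0.06), outside the interval of Mir708. The ratio of Mir425 was 0.38 (0.34 to 0.43).

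**Figure D3:**
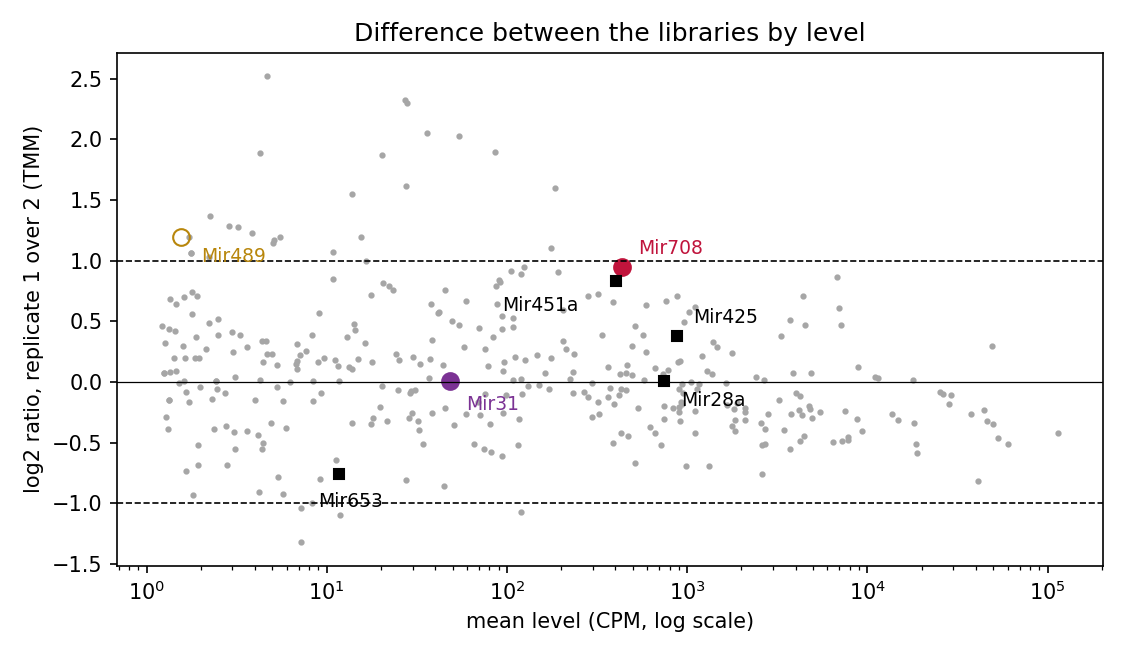
Log2 ratio of replicate 1 over replicate 2 after TMM scaling against the mean level (CPM, log scale) for the 365 detected genes in grey, with the named genes marked and dashed lines at 2-fold. Mir708 lies at 0.95, just under the line, and Mir31 at 0.0068. Mir489 is drawn open because it was not among the detected genes.

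Markers of some other cell types also differed between the libraries, and these values stand beside the difference of Mir708. The 7 epithelial and skin genes summed to 531 CPM in replicate 1 and 334 in replicate 2, and 5 of the 7 passed 2-fold and the adjusted p towards replicate 1 with TMM and with library totals. Over all detected genes, 6.3% did so with TMM and 11.2% with library totals. The 5 were Mir200a, Mir200b, Mir200c, Mir141 and Mir429, all of the miR-200 family. Ratios were above 0 in these 5 of the 7 epithelial and skin genes with TMM and in all 7 with library totals. The others were Mir203, with 292 and 268 CPM in replicates 1 and 2, and Mir205, with 26.4 and 23.3 CPM. Neither was above 0 with TMM. The erythroid genes Mir451a and Mir144 summed to 583 and 286 CPM, with 0 of 2 past 2-fold with TMM and 1 with library totals. Of the 4 fibroblast and mesenchymal genes, which summed to 6717 and 5017 CPM, all had ratios above 0 and 0 passed 2-fold with TMM and 1 with library totals. The 3 leukocyte genes found in the tables summed to 634 and 478 CPM, and 0 passed with TMM and 1 with library totals. The sum of the skeletal muscle genes, given above, was higher in replicate 2, but Mir206 made up most of it. Of the 6 detected skeletal muscle genes, 2 had ratios above 0 with TMM and 4 with library totals, and 0 passed 2-fold with either. The endothelial gene Mir126a had a log2 ratio of -0.32 with TMM and -0.076 with library totals. Of the 2 smooth muscle genes, Mir143 and Mir145a, 1 was above 0 with TMM and 2 with library totals. No endothelial or smooth muscle gene found passed 2-fold. No epithelial, erythroid, fibroblast or leukocyte marker found was at 0 in both libraries. The part of these cell types in the level of Mir708 was not tested.

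The genes most like each of the 3 in level were taken as the 3 nearest detected genes by Euclidean distance in log2(CPM + 1) over the 2 libraries. With 2 libraries this measures level and ratio only. Nearest to Mir708 were the red-cell gene Mir451a with 548 and 260 CPM in replicates 1 and 2 (distance 0.136), Mir668 of the Dlk1-Dio3 domain with 504 and 269 CPM (0.259) and Mir350 with 408 and 263 CPM (0.560). Nearest to Mir31 were Mir877, in an intron of Abcf1, with 51.4 and 43.0 CPM (distance 0.0429), the lymphocyte gene Mir150 with 46.0 and 45.0 CPM (0.187) and Mir187 with 50.3 and 38.5 CPM (0.199). Near Mir489 stood Mir7666, with 20 and 10 counts, and Mir488 and Mir18b, each with 20 and 11. These last distances (0.129 to 0.175) rest on few counts. Only detected genes were eligible and Mir489 itself was not detected, so undetected genes nearer to it in level can be missing here.

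Against other microRNAs linked to satellite cells and myoblasts, Mir708 sat near the middle, Mir31 lower and Mir489 below each detected gene of the list. Of 33 listed genes, 29 were found in the tables and 24 were detected, with a median of 384 CPM among the detected. Of the 29, 11 lay above Mir708 in mean CPM, 18 above Mir31 and 24 above Mir489. In the quiescence group, Mir127 had 37145 CPM in replicate 1 and 37634 in replicate 2, and Mir195a, whose microRNA is known to block the cell cycle of satellite cells, had 759 and 732. Mir195b and Mir497b had 0 counts. On the strand opposite Mir497b, where Mir497, the partner of Mir195a, is annotated, 5384 and 5822 counts were found, equal to 677 and 538 CPM. Mir195a and these reads thus lay above Mir708 in both libraries, by more in replicate 2.

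Among microRNAs known to lower Pax3 or Pax7, factors that keep the satellite cell identity, 5 of 5 genes found were detected. Mir206 led with 107144 and 120690 CPM in replicates 1 and 2, followed by Mir27b with 1794 and 1878 CPM. Of the genes linked to myoblast proliferation and differentiation, 17 of 20 found were detected. Mir322, from the chromosome X cluster that slows the cell cycle, had 26652 and 23800 CPM, and Mir214, which is known to lower the Polycomb protein Ezh2, 5428 and 4355 CPM. Many genes of these groups have near-identical copies and hold only reads that fit 1 place, 13 of the 24 detected, so their place in the order is a lower limit.

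Between the libraries, 0 of the 24 detected list genes passed 2-fold with the adjusted p in either direction with TMM (exact binomial test, where 7.4% of all detected genes passed), and 1 passed towards replicate 1 with library totals, where 11.2% of all detected genes did. With TMM and the adjusted p alone, 7 were higher in replicate 1 and 10 in replicate 2, beside 30.1% and 31% of all detected genes. Library totals turned this balance, with 13 higher in replicate 1 and 6 in replicate 2, beside 47.9% and 16.4% of all detected genes. The median log2 ratio of the 24 genes was -0.017 with TMM and 0.23 with library totals, beside 0.015 and 0.26 over all detected genes. With TMM they ranged from -0.81 for Mir181a-2 to 0.76 for Mir155, so the ratio of Mir708 (0.95) was above each of them. Mir127 and Mir195a, of the quiescence group, had ratios of -0.26 and -0.19, opposite in sign to Mir708. With library totals these became -0.019 and 0.05.

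**Figure D4:**
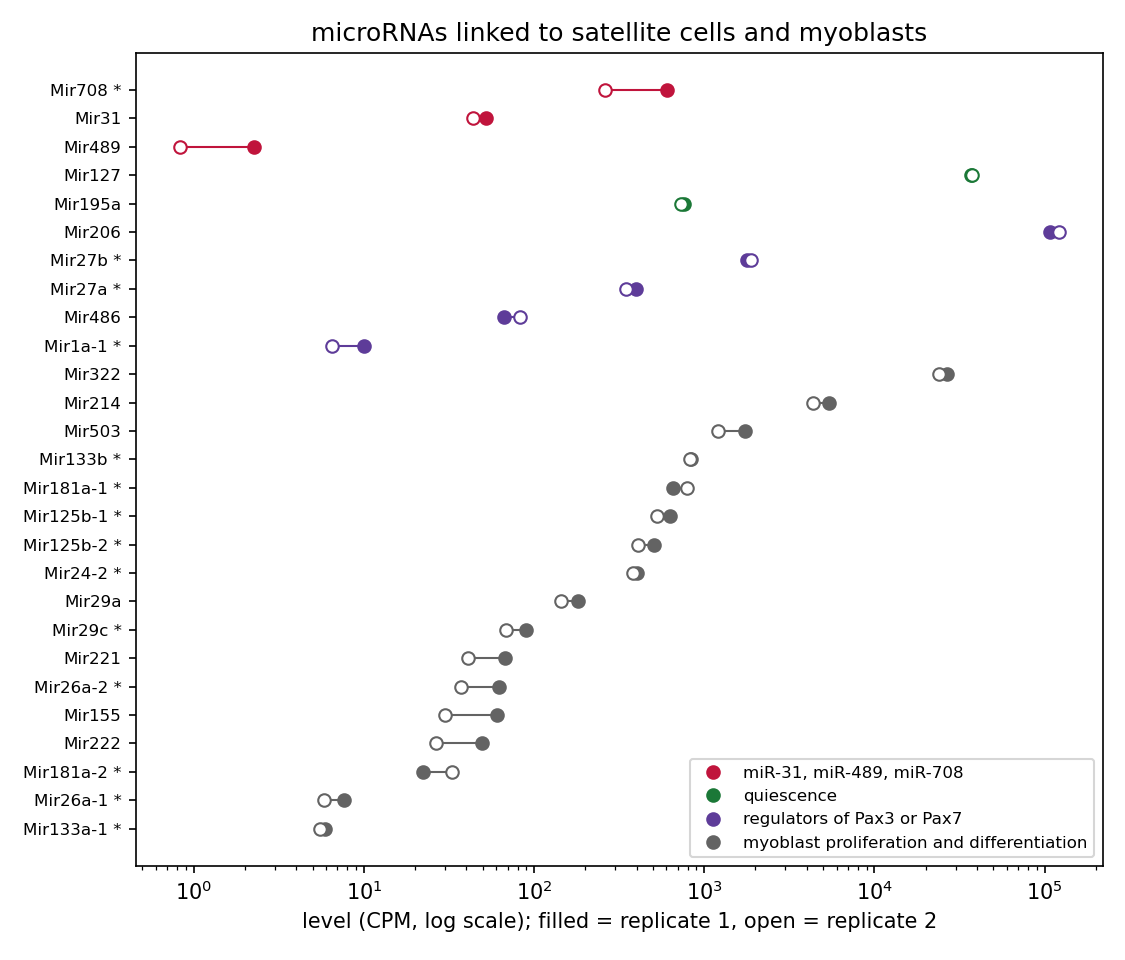
Level (CPM, log scale) in replicate 1 (filled) and replicate 2 (open) of Mir708, Mir31 and Mir489 and of 24 detected genes linked to satellite cells and myoblasts, by group. An asterisk marks genes that share 20 bases of hairpin with another microRNA gene. Mir489, with 2.26 CPM in replicate 1 and 0.832 in replicate 2, lies below all others shown.

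The hairpins of the 3 genes did not stand apart from those of detected genes in base composition. The GC content of Mir708 was 50.5%, beside a median of 50.6% over 365 hairpins. Mir31 stood above 46.0% of them in GC content, and Mir489, with 42.1%, above 15.6%. All 3 hairpins, of 106 to 109 bases, were longer than the median of 84. The predicted folding energy per base was -0.46 kcal/mol for Mir31, -0.35 for Mir489 and -0.41 for Mir708, beside a median of -0.43. Of the detected hairpins, 88.8% were predicted to fold more stably per base than Mir489 and 35.3% more stably than Mir31.

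The known targets were read for seed matches, which shows where the 3 seeds could pair. No messenger RNA was measured here. The reverse complement of each seed was searched in the mRNA strand of the longest annotated 3′UTR of Myf5, Dek and Tns3 (GENCODE M21). The motifs were TCTTGCC for miR-31-5p, GTGTCAT for miR-489-3p and AGCTCCT for miR-708-5p. In each target only the motif of its own microRNA occurred, and the sites are shown with the match in capitals.
Myf5, miR-31-5p: ttgtaaatactgTCTTGCCact
Dek, miR-489-3p: tttgccctcaaaGTGTCATcaa
Dek, miR-489-3p: tgttaactctaaGTGTCATaga
Tns3, miR-708-5p: attccactttttAGCTCCTatt
The Myf5 match starts at base 117 of a 3′UTR of 1112 bases. Those in Dek start at bases 704 and 734 of 1286, and that in Tns3 starts at base 1808 of 2842. Among 3′UTRs within 20% of the same length, 9.82% held the miR-31-5p motif (2800 compared with Myf5), 8.69% the miR-489-3p motif (2877 compared with Dek) and 26.5% the miR-708-5p motif (2717 compared with Tns3). A match is a description of the sequence and not evidence of pairing in this tissue. Because the seeds are shared, the Dek matches are equally matches of miR-425-5p, and the Tns3 match is one of miR-28a-5p.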

How the data were processed

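Raw counts per microRNA gene, 1 table a library, were deposited by the authors, on mm10 with GENCODE M4 per the deposited readme text. Aligner and counter: not given in the sources used here. Counts come for both strands and for each strand. Which strand column is the annotated strand was inferred from its larger sum. Of all reads, 28.01% and 26.9% in replicates 1 and 2 fitted more than 1 place, 16.0% and 13.4% were unmapped and 1.60% and 1.43% lay in no gene. These stayed out of library sizes.

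Symbols, coordinates and hairpins came from GENCODE M21 (GRCm38, the same assembly), which matched 1894 of 1973 gene IDs. Mature sequences came from RefSeq (GRCm38.p6), where all 3 genes were found. TMM factors (1.09 and 0.918) came from edgeR 4.0.16 in R 4.3.3. The binomial test used scipy 1.17.1 with Benjamini-Hochberg adjustment at 0.05 (statsmodels 0.14.6), a fold minimum of 2 and a count minimum of 10. It was checked on counts simulated with Poisson error only, so the check does not cover differences between libraries beyond counting error. Hairpins were folded with RNAfold of ViennaRNA 2.7.2. Python 3.11.15 with numpy 2.4.6, pandas 2.3.3 and matplotlib 3.10.9 served for tables and figures.

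The members and lists were chosen with earlier results of these data known. Named genes were the 3 members, microRNA genes within 10 kb, genes with an arm of the same seed, the 3 nearest genes in level and the top 2 of each list group. List genes were matched by symbol.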

Additional observations from a re-analysis of the deposited data

Results flagged for a closer look

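Mir708 had counts on the strand opposite its annotation, 4 in replicate 1 and 5 in replicate 2, each above the 3 counts that a count of 0 allows. These counts are outside the annotated-strand levels reported for the gene and made up 0.0834% and 0.176% of its counts on both strands. Summed over all genes, that share was 10.7% and 11.9% in replicates 1 and 2.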

How the results depend on the processing

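Mir31 had no stable direction between the libraries: its log2 ratio was 0.0068 with TMM and -0.0081 with DESeq2 1.42.0 size factors (adjusted p 0.999, and 0.0165 to 0.999 over its alternatives, exact binomial test). Mir708 passed 2-fold with library totals (1.20) and with a count minimum of 1 (1.04), but not in the other 3 alternatives. Of the genes tested, 7.12% lay farther from 0 than Mir708 with library totals and 18.8% with a count minimum of 1. The number of genes higher in replicate 1, past both the fold minimum and the adjusted p, was 23. It became 41 with library totals, 13 with a count minimum of 50 and 52 with a fold minimum of 1.5. For replicate 2 it was 4, and became 1, 2 and 20, and 2 with a count minimum of 1. Scaled to all reads in place of microRNA counts, the levels were 24.0 for Mir31, 0.763 for Mir489 and 214 for Mir708, lower alike for all 3. The rank of Mir31 was 213 with both strands counted and 160 of 287 without genes that share a stretch. The other alternatives kept direction and call, kept a count within 1.5 times, or moved a level or rank by less than the SD of the 2 libraries, which is wide for Mir489 and Mir708. Mir31 passed the adjusted p, though not 2-fold, with library totals alone. Those with a count minimum of 10 or more give no test for Mir489.

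With each replicate left out, levels were 44.0 to 52.4 CPM for Mir31, 0.832 to 2.26 for Mir489 and 263 to 602 for Mir708. Without replicate 1 the last 2 fall by over 1.5 times. No paired analysis was possible because there is 1 group. For Mir489, the 18 and 9 counts limit every comparison.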
